A study of Mus musculus with 3 samples.

Results

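Promoter-proximal TR binding sites (TRBS) are those whose summit, the base with the highest fragment coverage, lay more than 1 kb and at most 10 kb from the nearest transcription start site (TSS) of a protein-coding gene. The TSS was taken as the 5′ end of the gene, 1 for each gene, and distances were measured on both sides of it. This rule selected 3707 of the 23988 TRBS of the list, or 15.5% (15.0 to 15.9). A further 4894 TRBS lay within 1 kb of a TSS and 15387 lay over 10 kb away. The rule uses position only, and neither enrichment nor sequence at the summit enters it.

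The data come from TRα1 ChIP-seq on the striatum of adult male C57BL/6J mice, aged 8 weeks. The mice were euthyroid, received no treatment and carried a GS-tagged TRα1 that is expressed in GABAergic neurons, the cells that make up most of the striatum. The 2 ChIP libraries and the 1 input library share this genotype, so the input served as the background and no animals without the tag were compared. The tagged receptor comes from a floxed construct, and the Cre driver is not given in the sources used here. Chromatin was crosslinked with disuccinimidyl glutarate before formaldehyde, which also retains proteins held on DNA through other proteins. A single peak list holds 1 set of values for each TRBS and none for single libraries. No value here therefore has an error between animals, and each interval is a 95% interval over TRBS that covers counting error only. Neighbouring TRBS of a gene are not independent replicates, so the p-values below count TRBS as if they were.

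Thyroid hormone receptors are nuclear receptors that stay on chromatin with or without their ligand T3 and recruit corepressors or coactivators. They bind as heterodimers with RXR to a pair of half-sites in the same orientation, and the arrangement with a spacer of 4 bases is called DR4. A TRBS at some distance from a TSS may lie in an enhancer, in an intron or at another promoter, so distance alone does not say what kind of element it is.

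DR4 was searched on both strands as AGGTCA repeated after 4 bases, allowing 2 mismatches among the 12 bases of both half-sites, within 100 bp of the summit. A DR4 without a mismatch was found at 20 proximal TRBS. The 4 of them with the highest fold enrichment are shown here with 22 bases on either side and with the half-sites in capitals, as read from GRCm38 on the strand given.
Thbs4 chr13:92799735-92799794 (plus strand): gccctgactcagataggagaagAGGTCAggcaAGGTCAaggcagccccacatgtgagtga
Csmd1 chr8:17529706-17529765 (plus strand): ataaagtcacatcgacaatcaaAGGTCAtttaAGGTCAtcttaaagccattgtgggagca
Cnot2 chr10:116585931-116585990 (minus strand): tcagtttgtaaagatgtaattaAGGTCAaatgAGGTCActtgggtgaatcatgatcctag
Dhrs7c chr11:67807246-67807305 (plus strand): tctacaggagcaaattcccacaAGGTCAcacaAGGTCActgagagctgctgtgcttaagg
The next set shows the best match at TRBS of genes described below, where up to 2 half-site bases differ. In 6 of them the match lies within 100 bp of the summit, and at Hr it lies 137.5 bp from it.
Klf9 chr19:23137441-23137500 (plus strand): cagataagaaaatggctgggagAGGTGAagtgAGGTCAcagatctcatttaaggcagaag
Gng7 chr10:81018396-81018455 (minus strand): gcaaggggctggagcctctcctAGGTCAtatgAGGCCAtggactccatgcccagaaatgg
Dio3 chr12:110270129-110270188 (minus strand): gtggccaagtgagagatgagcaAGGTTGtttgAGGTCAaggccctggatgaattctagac
Ppp1r1b chr11:98346078-98346137 (plus strand): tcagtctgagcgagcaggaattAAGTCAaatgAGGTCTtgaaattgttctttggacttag
Pde1b chr15:103501079-103501138 (plus strand): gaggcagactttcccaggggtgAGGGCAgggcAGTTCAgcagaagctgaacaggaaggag
Adgrl1 chr8:83909561-83909620 (plus strand): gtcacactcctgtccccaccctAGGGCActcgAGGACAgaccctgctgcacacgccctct
Hr chr14:70549597-70549656 (minus strand): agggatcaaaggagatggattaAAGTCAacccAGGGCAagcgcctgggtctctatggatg

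Proximal TRBS were denser on the downstream side of the TSS. Downstream of it lay 2367 proximal TRBS, or 63.9% (62.3 to 65.4), although this side held 52.4% of the sequenced bases in the distance range. The density was 14.0 TRBS per Mb downstream and 8.73 per Mb upstream. It was highest next to the promoter, at 27.5 per Mb (25.2 to 29.8) between 1 and 2 kb downstream, where 564 TRBS lay. Of these, 54.3% lay within 1 kb of another annotated transcript start, against 20.4% between 1 and 2 kb upstream. The TSS was the outermost 5′ end of the gene, so other starts of the same gene can lie only downstream of it. From 5 kb on, the downstream density stayed between 10.7 and 11.9 per Mb. Upstream, the density was 11.4 per Mb between 1 and 2 kb and lay between 7.32 and 9.46 per Mb farther away. At each distance the downstream value was the higher, and the intervals of both sides overlapped only at 4 to 5, 6 to 7 and 7 to 8 kb. At 9 to 10 kb the values were 11.9 (10.3 to 13.7) and 8.11 (6.71 to 9.72).

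**Figure D1:**
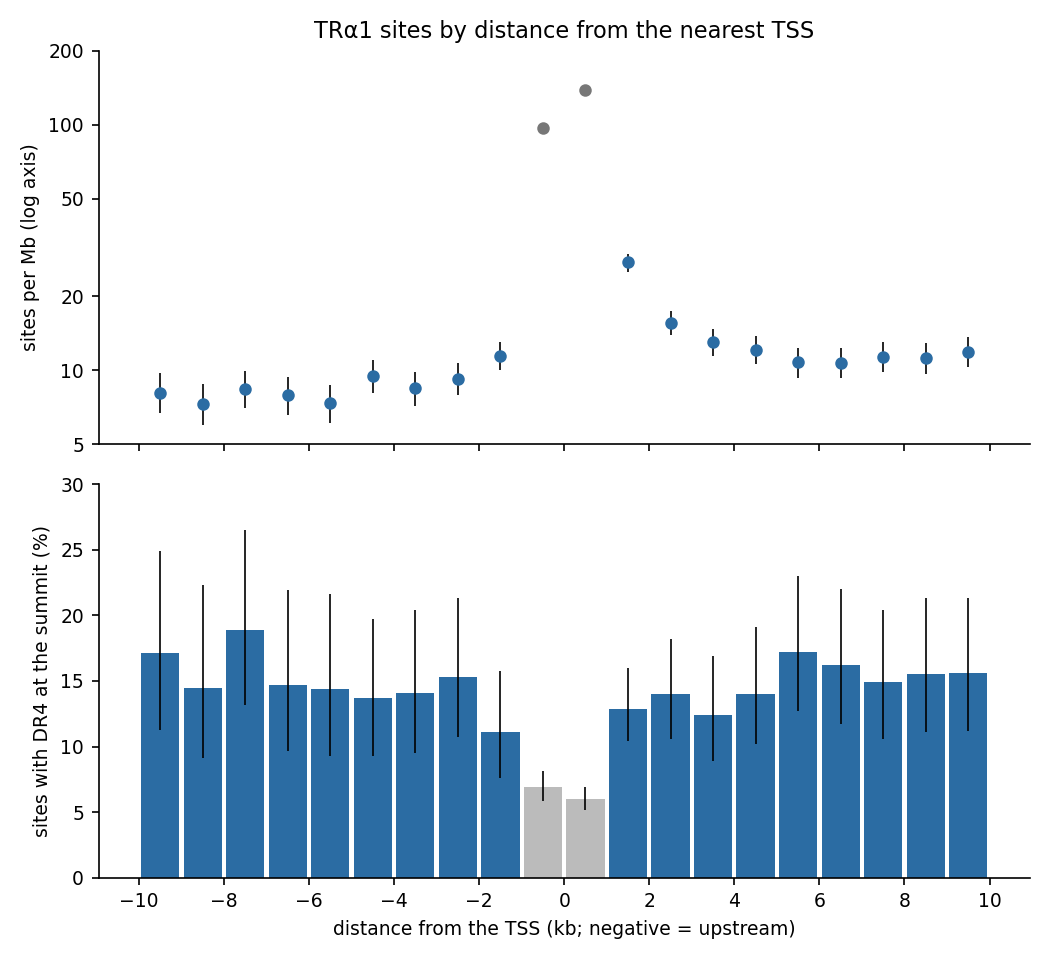
Upper panel, TRBS per Mb of sequenced bases (log axis) in 1 kb steps of signed distance from the nearest TSS, with exact Poisson 95% intervals; lower panel, share with DR4 within 100 bp of the summit, with Wilson 95% intervals. Blue marks the proximal TRBS and grey the TRBS within 1 kb; density falls from 27.5 to 15.6 per Mb over the first steps downstream, while the DR4 share stays between 11.1% and 18.9% in all proximal steps.

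The downstream share was higher than the 59.8% of TRBS within 1 kb, with an odds ratio of 1.19 (1.09 to 1.30, two-sided Fisher's exact test, p = 1.19e-04). Against the 61.5% of the 3983 TRBS between 10 and 30 kb the odds ratio was 1.11 (1.01 to 1.22, two-sided Fisher's exact test, p = 0.0319). Neither difference passed the threshold of 0.05 for the TRBS 5 to 10 kb away (two-sided Fisher's exact tests, p = 0.142 and 0.808). With the 5′ ends of all annotated genes as TSS, the first odds ratio turned to 0.953 (Fisher's exact test, p = 0.199). With every transcript start of protein-coding genes as TSS, 55.9% of the TRBS 1 to 10 kb away lay downstream, against 50.7% within 1 kb.

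Introns held most proximal TRBS. In all, 1974 summits (53.3%) lay in an intron and 1135 (30.6%) lay outside protein-coding genes. An untranslated exon held 262 (7.07%) and a coding exon 204 (5.50%). Another 132 lay in an exon of a transcript that is not coding. Over 10 kb away the intron share was about the same, at 53.4%, and within 1 kb it was 24.7%. Untranslated exons held 2.14% over 10 kb away and 27.9% within 1 kb. Coding exons held 1.61% and 8.19%, and 41.7% and 34.8% lay outside genes. Of the 2367 downstream TRBS, 1796 lay in an intron of the nearest gene's longest coding transcript, and for 1211 of these, or 67.4%, it was intron 1. Intron 2 held 320 and later introns 265. Gene length and intron length were not taken into account. DR4 was about as frequent in introns (14.7%) as outside genes (14.7%), and its share in coding exons was 10.8% (7.23 to 15.8).

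Part of the proximal TRBS lay near other annotated transcript starts. The summit of 971 proximal TRBS, or 26.2%, was within 1 kb of an annotated transcript start other than the gene ends used by the rule. For 798 this was a start of a protein-coding gene, and for 181 it was the start of a long noncoding RNA. Over the whole list, 30.6% of TRBS lay within 1 kb of any annotated start, which includes the TRBS at gene ends. At 15387 TRBS over 10 kb away the share with another start was 9.64%, and the odds ratio was 3.32 (3.03 to 3.64, two-sided Fisher's exact test, p = 4.36e-138). Annotated starts are themselves denser near genes, and this was not taken into account. With every transcript start of protein-coding genes as TSS, which takes these starts out of both classes, the odds ratio fell to just under 1. Other starts lay near 32.5% of downstream and 15.1% of upstream proximal TRBS.

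A CpG-rich summit, with at least 50% GC and a ratio of observed to expected CpG of at least 0.6 within 100 bp of it, is typical of promoters in CpG islands. It was found at 573 proximal TRBS, or 15.5% (14.3 to 16.7), against 20.4% over the whole list. Within 1 kb of a TSS 74.2% of summits were CpG-rich, and the odds ratio of proximal TRBS against them was 0.0636 (0.0569 to 0.0711). The p of this two-sided Fisher's exact test was below the smallest number the software represents. Over 10 kb away the share was 4.54%, and the odds ratio against it was 3.84 (3.41 to 4.33, two-sided Fisher's exact test, p = 7.95e-104). Of the proximal TRBS with another start, 37.2% (34.2 to 40.3) were CpG-rich, compared with 7.75% (6.80 to 8.81) of those without. The largest set, 2524 TRBS or 68.1%, had neither feature.

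DR4 marked a minority of proximal TRBS, at a share well above that of neighbouring sequence. It was present within 100 bp of the summit in 535 proximal TRBS, or 14.4% (13.3 to 15.6), next to 13.1% over all TRBS of the list. In windows of the same length 5 kb to the right it was present in 87, or 2.35%, a ratio of 6.15. DR4 was found at the summit and not in the window for 526 TRBS, and in the window alone for 78 (two-sided exact McNemar test, p = 1.44e-82). These windows overlapped another TRBS in 4.32% of cases. Searching each TRBS over its whole length gave 704 with DR4, or 19.0% (17.8 to 20.3), but longer TRBS then have more bases in which to match.

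The share with DR4 was closer to that of distant TRBS than to that of TRBS at the TSS. Within 1 kb of a TSS 311 TRBS, or 6.35%, had DR4, and the odds ratio of proximal TRBS against them was 2.49 (2.14 to 2.89, two-sided Fisher's exact test, p = 2.69e-35). Over 10 kb away the share was 15.0%, and the odds ratio was 0.956 (0.862 to 1.06, two-sided Fisher's exact test, p = 0.396). Upstream proximal TRBS had DR4 in 14.6% and downstream ones in 14.4%, with an odds ratio of 1.02 (0.835 to 1.23, two-sided Fisher's exact test, p = 0.884). This interval leaves room for a difference of up to 1.23 times in the odds.

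CpG content moved with the presence of DR4 in every distance class. Among proximal TRBS 39 of 573 CpG-rich summits had DR4, or 6.81%, and 496 of the 3134 others, or 15.8% (odds ratio 0.389, 0.269 to 0.547, two-sided Fisher's exact test, p = 1.37e-09). Within 1 kb of a TSS the shares were 3.69% and 14.0%, and over 10 kb away they were 4.29% and 15.5%. For summits that are not CpG-rich, the odds ratio of proximal TRBS against those within 1 kb was 1.15 (0.955 to 1.40, two-sided Fisher's exact test, p = 0.139), so that the difference at the TSS no longer passed the threshold. For CpG-rich summits it was 1.91 (1.28 to 2.78, two-sided Fisher's exact test, p = 9.74e-04). Proximal TRBS with another start had DR4 in 11.5%, compared with 15.5% of those without (odds ratio 0.713, 0.565 to 0.894, two-sided Fisher's exact test, p = 0.00288). The comparisons by CpG content and by other start within this paragraph were chosen after the data were seen.

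**Figure D2:**
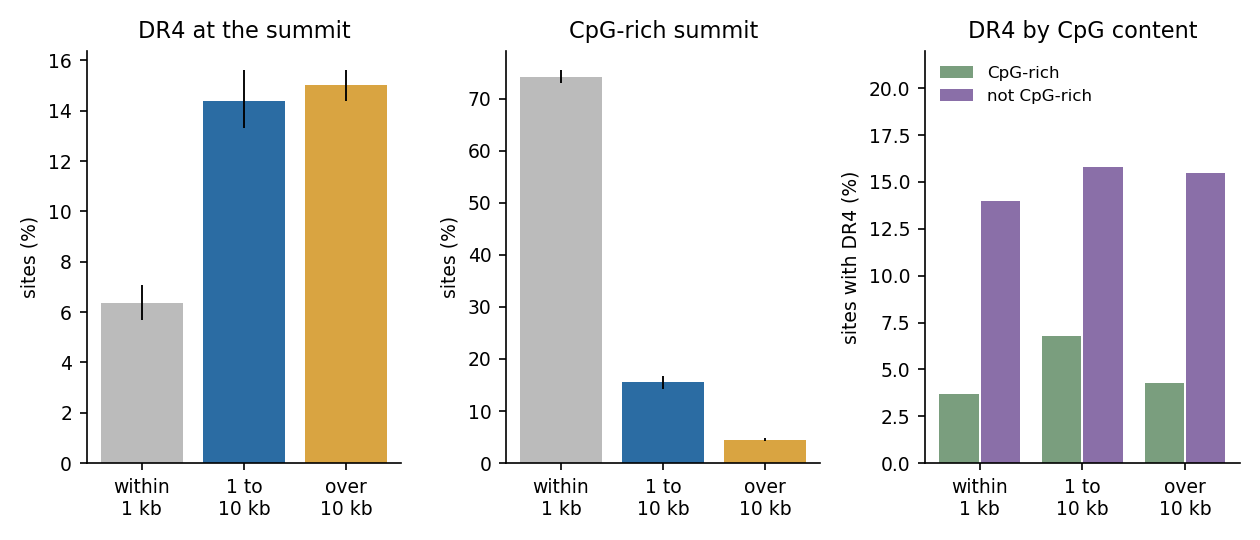
Share of TRBS within 1 kb, 1 to 10 kb and over 10 kb from a TSS with DR4 at the summit (left) and with a CpG-rich summit (middle), with Wilson 95% intervals, and share with DR4 for CpG-rich (green) and other (purple) summits (right, without intervals). Proximal TRBS have DR4 in 14.4% and a CpG-rich summit in 15.5%, and summits that are not CpG-rich have DR4 in 14.0%, 15.8% and 15.5% of the respective classes.

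The DR4 matches lay close to the summit. Their centre was at a median of 28.5 bp from it, and 44.9% lay within 25 bp. In the flanking windows the corresponding values were 51.5 bp and 23.0%. A match had to lie whole within the window, which limits the centres in both sets alike. DR4 had the same orientation as the nearest gene in 47.9% of the 535 TRBS (43.6 to 52.1), so that neither orientation prevailed beyond counting error.

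**Figure D3:**
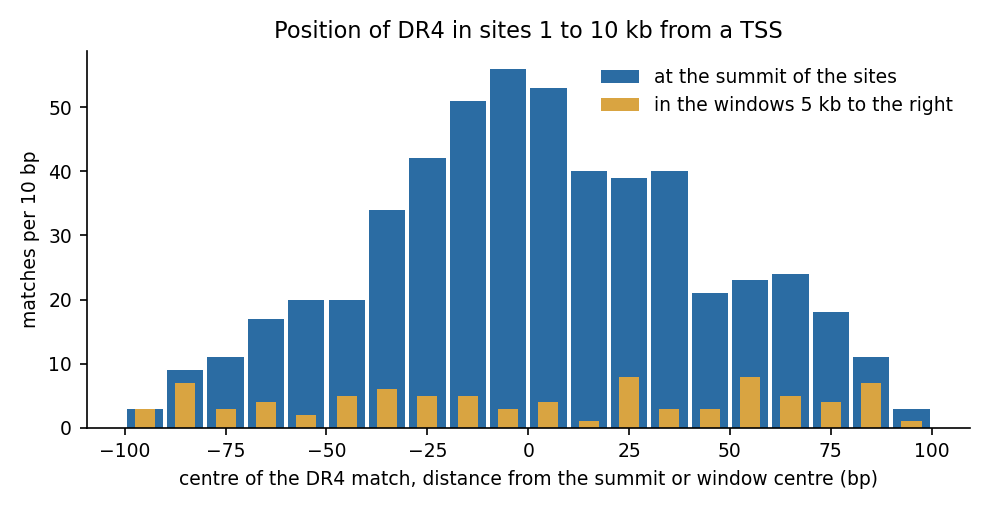
Number of DR4 matches per 10 bp by the distance of their centre from the summit of proximal TRBS (blue, 535 matches) and from the centre of the windows 5 kb to the right (orange, 87 matches). Matches at the summit rise towards the centre to 56 per step, whereas the windows hold between 1 and 8 in each step; a match that reaches past the window is not counted, which lowers the outermost steps.

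The bases that the search left free were not evenly used. At the third spacer base T was present in 45.4% of the 535 proximal matches and in 21.9% of the 552 matches in the flanking windows of all TRBS, and A in 9.16% and 29.0%. At the last spacer base G was present in 40.9% and 29.0%. The most frequent spacer was TTTG, as in the Dio3 sequence above, in 18 matches (3.36%). Mismatches were also uneven: the second base of the second half-site differed in 2.62% of proximal matches and in 12.3% of matches in the windows. The fourth base of the second half-site differed in 35.5% and 25.9%. A mismatch of the first base of the first half-site occurred in 20.0% of proximal matches and in 10.1% of matches in the windows. These shares are descriptive, and 391 of the 535 proximal matches had 2 mismatches, 124 had 1.

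Among 11 arrangements of the half-site, DR4 and DR5 passed the threshold against the flanking windows. DR5, the same pair with 5 bases between, was present in 3.67% of proximal TRBS and in 2.19% of windows, a ratio of 1.68 (exact McNemar test, adjusted p = 0.00118). DR5 missed the threshold with a score of at least 200, the midpoint of the peak, 1 to 5 kb or 5 to 10 kb alone or 1 mismatch allowed, with adjusted p between 0.0548 and 0.314 in the exact McNemar tests. The inverted repeat without spacer had a ratio of 1.64 and the everted repeat with 6 bases a ratio of 1.68, each with an adjusted p of 0.0864 in the exact McNemar test. The inverted repeat passed in 4 of the 8 alternatives, among them a score of at least 200 with a ratio of 4.80 (exact McNemar test, adjusted p = 0.00300) and the windows to the left (1.74, adjusted p = 0.0454). The everted repeat passed with the windows to the left (1.79, exact McNemar test, adjusted p = 0.0454) and with every transcript start (1.63, adjusted p = 0.0387). DR0 to DR3 and DR6 to DR8 had ratios from 0.803 to 1.30 and did not pass.

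Motifs of other factors were also more frequent at proximal summits. Of 15 motifs searched without mismatch on both strands, 8 were higher than in the windows and 1 was lower after adjustment over the 15. The GC box GGGCGG, bound by SP factors, was present in 16.7% of summits and 5.77% of windows, a ratio of 2.89 (exact McNemar test, adjusted p = 2.05e-50). TGACTCA, the AP-1 element, was present in 7.82% and 3.91% (exact McNemar test, adjusted p = 5.32e-12). The E-box CAGCTG, read by neuronal basic helix-loop-helix factors, was present in 14.7% and 9.39% (exact McNemar test, adjusted p = 7.10e-12). The E-box CACGTG was present in 4.88% and 2.99% (exact McNemar test, adjusted p = 1.33e-04). Rarer motifs that passed were the cyclic AMP element TGACGTCA (0.540% and 0.108%), the NRF1 element of GCGC and TGCGC separated by 1 base (0.998% and 0.243%), the CTCF core AGGGGGCGC (0.836% and 0.216%) and the MEF2 element CTAAAAATA (0.728% and 0.270%). MEF2 missed the threshold in 5 of 7 alternatives (adjusted p between 0.0864 and 0.364 in the exact McNemar tests). The cyclic AMP element missed it at 5 to 10 kb and with every transcript start (0.245 and 0.147), NRF1 with every transcript start (0.597), and CTCF with a score of at least 200 and at 5 to 10 kb (0.340 and 0.178). The forkhead element TGTTTAC was less frequent, with 1.16% and 2.35% (exact McNemar test, adjusted p = 2.10e-04), but not past the threshold at 5 to 10 kb alone (adjusted p = 0.134). Elements of EGR1, NBRE, RORE, ETS, NFI and YY1 did not pass, with adjusted p from 0.0713 to 1.00. With the windows to the left NBRE (ratio 1.89) and RORE (1.56) did pass, each with an adjusted p of 0.0114 in the exact McNemar test, and NBRE also passed with the midpoint of the peak (adjusted p = 0.0491). Summits had a median GC content of 52.2% and windows 47.3%, and the part of base composition in these differences was not tested.

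Fold enrichment, the ratio of the coverage at the summit to the local background, had a median of 7.44 at proximal TRBS, with quartiles of 5.95 and 11.5 and a maximum of 92.0. The median was 7.81 within 1 kb of a TSS and 7.13 over 10 kb away. Of the proximal TRBS 51.4% lay above the median of the list, compared with 49.9% of all TRBS. The odds ratio was 0.899 (0.824 to 0.980, two-sided Fisher's exact test, p = 0.0146) against TRBS within 1 kb and 1.14 (1.06 to 1.22, two-sided Fisher's exact test, p = 5.42e-04) against TRBS over 10 kb away. Neither held with a score of at least 200, where the odds ratios were 0.992 and 0.976.

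DR4 was more frequent among the more enriched proximal TRBS. In 5 groups of 609 to 852 TRBS, from the lowest to the highest fold enrichment, its share was 8.30%, 13.8%, 13.6%, 16.7% and 19.0%. The highest group, from 12.7 upwards, held 147 DR4 among 773 TRBS. Proximal TRBS with DR4 had a median fold enrichment of 8.55 and those without had 7.36. Even in the highest group most TRBS lacked DR4 near the summit.

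**Figure D4:**
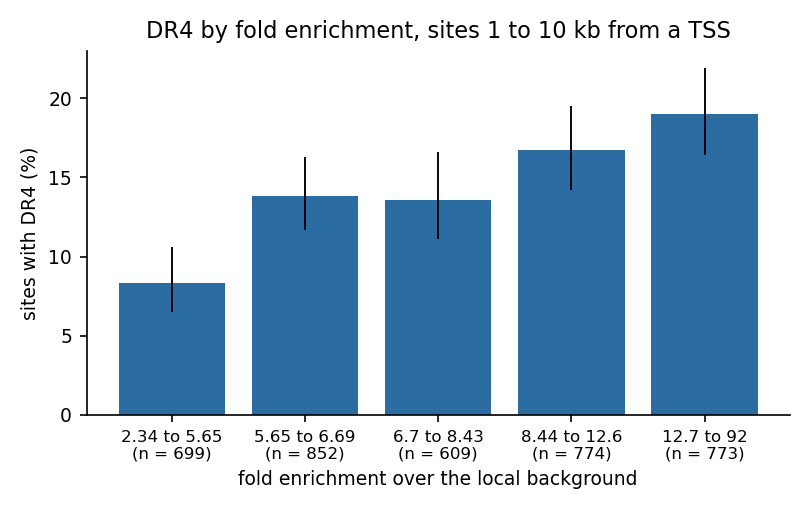
Share of proximal TRBS with DR4 within 100 bp of the summit, with Wilson 95% intervals, in 5 groups of fold enrichment. The share is 8.30% in the lowest group and 19.0% in the highest, and groups differ in size because equal values were kept together.

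Proximal TRBS were nearest to the TSS of 2923 protein-coding genes, or 13.3% of 21938. Most of these, 2308, had 1 proximal TRBS, 476 had 2, 113 had 3, 22 had 4 and 4 had 5. Of the 2923 genes, 1010 (34.6%) also had a TRBS within 1 kb of the TSS, compared with 18.8% of genes without a proximal TRBS. A DR4 was found at the proximal TRBS of 518 genes, and 17 genes had DR4 at 2 or more. For 672 proximal TRBS (18.1%) another protein-coding TSS also lay within 10 kb, so that the nearest gene is not the only candidate.

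Where a gene had both kinds of TRBS, the strongest of each kind were compared. A kind with more TRBS in a gene has the advantage in this comparison, and this was not taken into account. The strongest proximal TRBS had the higher fold enrichment in 498 of 1004 genes, or 49.6% (two-sided exact binomial test, p = 0.825). The values were equal in a further 6 genes. On the log2 scale the ratio of the proximal to the promoter value had quartiles of -0.63 and 0.64. By pileup, the coverage itself, the proximal TRBS was higher in 44.2% (exact binomial test, p = 3.25e-04), so that the answer depended on the measure.

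The most enriched proximal TRBS belonged to genes of varied function. Ppard, a nuclear receptor for fatty acids, had the highest value, with a fold enrichment of 92.0 at 6417 bp upstream of its TSS. That summit lies in a coding exon of the neighbouring gene Def6. Atf3, a stress-response transcription factor, had a TRBS with a fold enrichment of 90.7 at 6568 bp upstream. Rgs9, a regulator of G protein signalling typical of the striatum, had one of 90.4 in intron 1, 8691 bp downstream. Bcar3, an adaptor protein, and Adgrl1, the synaptic receptor latrophilin, had 89.7 and 89.3. The values of the remaining 5 were 79.9 at Eef2, a translation elongation factor, 79.4 at Wfikkn1, 77.8 at Hnrnpul1, an RNA-binding protein, 75.1 at Rcn1 and 72.2 at Trp53inp2, which acts in autophagy. DR4 lay within 100 bp of the summit at 3 of these 10, namely Adgrl1, Rcn1 and Trp53inp2. It was present at 14.4% of all proximal TRBS and at 19.0% of those in the highest enrichment group. In 3 of the 10 genes, Bcar3 (10.6), Adgrl1 (6.11) and Rcn1 (5.43), there was also a TRBS within 1 kb. The share was 34.6% over all genes with a proximal TRBS. The fold enrichment within 1 kb was lower, but the 10 TRBS were chosen for the highest values, so this is no comparison.

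Among the 20 TRBS with a DR4 without mismatch, fold enrichment ranged from 5.33 to 48.3. Thbs4, which encodes an extracellular thrombospondin, had 48.3 at 4956 bp upstream, with DR4 at 9.5 bp from the summit. Csmd1 had 20.8 in intron 1, Cnot2, a subunit of the mRNA deadenylase complex, had 15.2 and Dhrs7c had 13.6. The other 16 lay between 5.33 and 10.4. A perfect match therefore went with both strong and weak TRBS. In 14 of the 20 no TRBS lay within 1 kb of the same TSS, near the 65.4% of all genes with a proximal TRBS.

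Of the 8 genes that the text of the study names, 5 had proximal TRBS, next to 13.3% of all protein-coding genes. Hr, a transcription cofactor and long-known T3 target, had a proximal TRBS at chr14:70549074-70549861, 2723 bp upstream, with a fold enrichment of 71.8 and a pileup of 192. Its TRBS within 1 kb had 21.6. Klf9, a T3-responsive transcription factor, had 5 proximal TRBS. The strongest, at chr19:23133923-23136791 and 5194 bp upstream, had 47.7. The others had 6.31 at 3738 bp upstream, 6.39 at 1186 bp, 6.06 at 2513 bp and 6.41 at 5427 bp downstream. DR4 lay at the summit of the one 3738 bp upstream, shown above, and not at the strongest. Trp53inp2 had its TRBS of 72.2 at 1192 bp downstream, within 1 kb of another annotated transcript start. Thra, which encodes TRα1 itself, had one of 19.6 in intron 1, 5993 bp downstream, with a DR4 centred 98.5 bp from the summit, which reaches past the window searched and is not counted. Desi1, a peptidase gene, had weak ones of 5.95 and 5.74, the first in an intron of the adjacent gene Xrcc6 and with DR4.

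**Figure D5:**
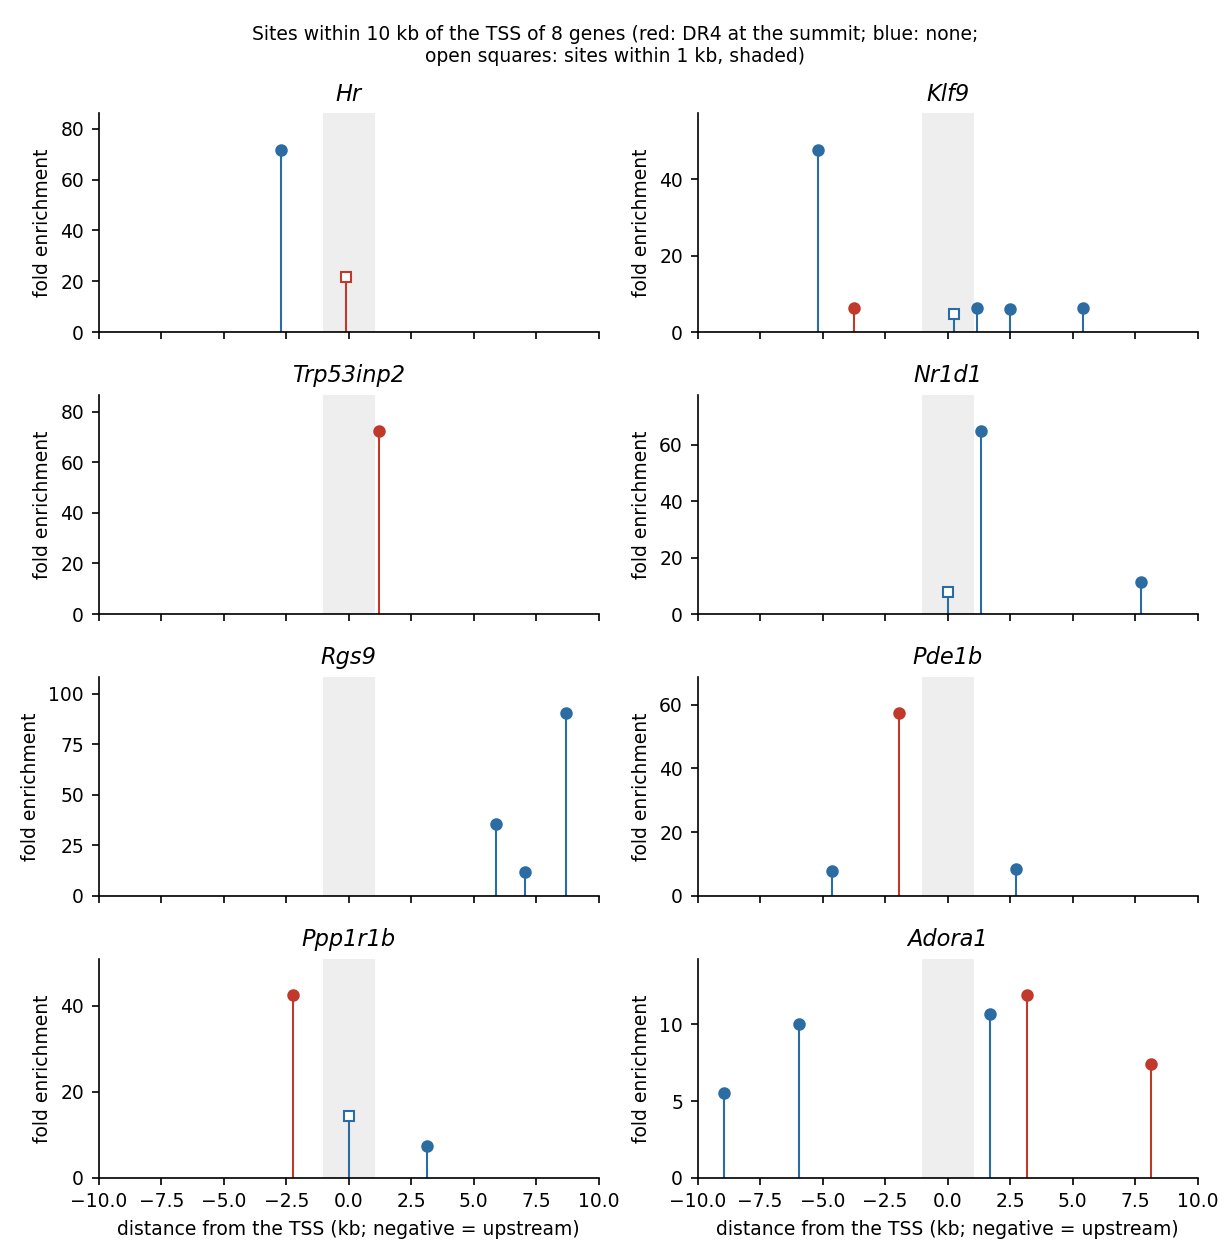
Fold enrichment of every TRBS within 10 kb of the TSS for 8 genes against signed distance from the TSS in kb; filled circles are proximal TRBS, open squares are those within 1 kb (shaded), and red marks DR4 within 100 bp of the summit. The vertical scale differs by gene. At Hr, Klf9, Nr1d1 and Ppp1r1b the strongest proximal TRBS stands above the one within 1 kb. At Trp53inp2, Rgs9, Pde1b and Adora1 no summit lies within 1 kb, although the TRBS of Trp53inp2 is 1332 bp long and reaches into that range. These genes are examples: among 1004 genes with unequal values of both kinds, the strongest proximal TRBS was the higher in 49.6%.

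Of 20 genes that respond to thyroid hormone, 13 (65.0%) had at least 1 proximal TRBS, next to 13.3% of all protein-coding genes. This share was not particular to them. It was 65.0% for the immediate early, 68.0% for the striatal and 50.0% for the clock and GABAergic lists described below. The lists of receptor machinery and of other cell types had 0 to 23.1%. Expression of the genes was not taken into account. The 26 TRBS of the response genes had a median fold enrichment of 6.50. DR4 was present at 8 of the 26, next to 14.4% of all proximal TRBS. Dio3, the deiodinase that inactivates thyroid hormone, had a TRBS of 23.1 with DR4 at 8936 bp upstream. Dbp, a transcription factor that is also under circadian control, had one of 38.6 with DR4 at 2765 bp downstream. TRBS with DR4 and lower enrichment were found at Rcan2 (8.88), Fndc5 (6.32) and Sema7a (5.58). Camk4 and Mbp had weak ones without DR4, at 5.58 and 5.95. Among 26 genes of the receptor machinery, 6 (23.1%) had proximal TRBS, next to the same 13.3% of all protein-coding genes. They included the corepressor subunit Tbl1xr1 (8.61, with DR4), the coactivators Ncoa1 (7.81) and Ncoa3 (5.25, with DR4), Thra and Dio3. At Ncoa3 the TRBS within 1 kb was the stronger, with 50.0.

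Genes characteristic of striatal projection neurons had proximal TRBS in 17 of 25 cases, next to 13.3% of all protein-coding genes, with 34 TRBS and a median fold enrichment of 10.2. DR4 was present at 6 of the 34, next to 14.4% of all proximal TRBS. Rgs9 had 3 in intron 1, with 90.4, 35.7 and 11.9. Pde1b, a calmodulin-dependent phosphodiesterase, had 57.3 with DR4 at 1950 bp upstream, and 7.81 and 8.49 at its other TRBS. Ppp1r1b, which integrates dopamine signals in these neurons, had 42.4 with DR4 at 2245 bp upstream, and 14.3 at its promoter. Bcl11b, a transcription factor of these neurons, had 4, the strongest with 28.9 and without DR4. The dopamine receptor genes differed, with 20.8 in intron 1 of Drd2 and 6.25 with DR4 at 9032 bp downstream of Drd1. Gng7, a G protein subunit, had 4, and the summit of the one with DR4 (8.45) lay 0.5 bp from the centre of its match. A further TRBS with DR4 was at Isl1 (6.02), and Gpr6 had 22.3 without it.

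Genes of GABAergic transmission had proximal TRBS in 10 of 20 cases, next to the same 13.3% of all genes, all with a fold enrichment of at most 19.1. The GABA receptor genes Gabbr1 and Gabrb1 had 19.1 and 18.9, and the synthetic enzymes Gad1 and Gad2 had 7.81 and 8.16. DR4 was present at 2 of the 13 TRBS, those of Gabrb1 and Gad1, a share near the 14.4% of all proximal TRBS. The summit of the Gabrb1 TRBS lies in an exon of the gene Gabra4, within 1 kb of another annotated transcript start.

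Clock genes also reached 10 of 20, against 13.3% of all genes, with 21 TRBS. Nr1d1, which encodes the circadian repressor REV-ERBα and overlaps Thra on the other strand, had 64.7 in intron 1, 1339 bp downstream, and 7.81 at its promoter. A second Nr1d1 TRBS (11.5) lay in an intron of Thra. Per1 had 4, between 6.32 and 12.2. DR4 was present at 3 of the 21, at Dbp, Tef (17.9) and Bhlhe41 (7.21), which is about the share of 14.4% over all proximal TRBS. At Bhlhe41 the TRBS within 1 kb was the stronger, with 41.8.

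Immediate early genes, which neuronal activity induces, had proximal TRBS in 13 of 20 cases, against 13.3% of all genes, with 21 TRBS. DR4 was present at 1 of them, at Npas4 (8.55), next to 14.4% of all proximal TRBS. The strongest were at Egr3 (24.1, 1523 bp upstream) and Egr1 (17.0, 4589 bp upstream), both without DR4. Arc, an activity-dependent synaptic protein, had 3, with 12.7, 6.69 and 6.32.

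Genes of other cell types had proximal TRBS at shares of 0 to 20.0%, around the 13.3% of all protein-coding genes. Of 15 genes each, 3 of the astrocyte list (S100b, Ntsr2 and Slc4a4, between 6.29 and 7.87), 2 of the oligodendrocyte list (Cnp and Mbp, 8.15 and 5.95), 0 of the microglia list and 0 of the hepatocyte list had proximal TRBS. The lists were written with earlier results of these data known, so that their counts are descriptions and carry no test. Of the genes with proximal TRBS, Dio3, Dbp, Rasd2, Thra and Mbp each stand in more than 1 list.

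Klf9 was 1 of the 4 genes with 5 proximal TRBS. Adora1, the adenosine A1 receptor gene, had 5 between 5.54 and 11.9 and none within 1 kb, with DR4 at 2. Zfp385a had 5 between 5.58 and 14.4, and Abcb9 had 5 between 5.92 and 19.7. Counted by symbol, Jakmip1 had 6 with a highest value of 25.7, but it stands for a pair of annotated genes with 3 each, fewer than the 22 genes with 4. These symbols and Klf9 each had most of their proximal TRBS in introns or outside genes.

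TRBS just inside and just outside the distance limits had the following values. In the 100 bp inside the 1 kb limit there were 118 TRBS, of which 13.6% had DR4 and 33.1% were CpG-rich, and in the 100 bp on the side of the TSS there were 136, with 11.8% and 38.2%. At the 10 kb limit, 30 TRBS inside had DR4 in 13.3% and 22 outside in 13.6%.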

How the data were processed

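TRα1 ChIP-seq was performed on striatum, with 2 ChIP libraries and 1 input library, grouped by their titles. Per the submitters' processing notes, the authors used Bowtie2 2.3.2.2 and MACS2 2.1.1.20160309.0. Reads were aligned to GRCm38, and peaks with a score below 60 were removed. Whether the ChIP libraries were pooled, and how duplicates were treated, is not given in the sources used here. The deposited pileup is a coverage signal, the deposited fold enrichment is a ratio to the local background of MACS, and the score and the −log10 of p and of q were deposited as MACS gave them. Depth per library was not analysed here.

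TSS were taken from GENCODE annotation of GRCm38 without the mitochondrial genes, and sequence from the RefSeq GRCm38 assembly. Windows reached 100 bp to either side of the summit. Control windows lay 5 kb to the right. Intervals of shares are Wilson intervals and those of odds ratios are conditional. Adjusted p-values follow Benjamini and Hochberg over 11 arrangements or 15 motifs, with a threshold of 0.05. Named genes were the 8 of the study's text with a TRBS in the class, those of the 10 most enriched TRBS, of up to 20 TRBS with a perfect DR4, the 5 with most TRBS, and list genes with a fold enrichment of at least 20 or DR4. Others are named only to complete a small count or a list. One symbol of the study was read as Trp53inp2. The class, lists and motifs were chosen with earlier results of these data known. Alternatives changed the score, summit, distance, annotation, mismatches, window and measure. Scripts ran under Python 3.11.15 and were tested on simulated data, with statistics from scipy 1.17.1, tables from pandas 2.3.3, arrays from numpy 2.4.6 and plots from matplotlib 3.10.9. Values of a few list genes are not reported here.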

Additional observations from a re-analysis of the deposited data

How the results depend on the processing

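Of the values under alternative settings that answer a comparison, 122 have a test, and 92 of these held both in direction and in passing or missing the threshold. Another 91 are counts without a test, and 64 of them stayed within 1.5 times the main count. A score of at least 200 left 1214 proximal TRBS. The side against 10 to 30 kb then had an odds ratio of 1.13, DR4 against over 10 kb 1.02, and enrichment 0.992 and 0.976 against within 1 kb and over 10 kb. The lists then held 8 thyroid hormone response, 4 GABAergic, 6 clock, 5 immediate early, 0 astrocyte and 0 oligodendrocyte genes. With the midpoint of the peak, the side against within 1 kb gave 1.08 and DR4 against over 10 kb 0.893 (p = 0.0403 in Fisher's exact test). Then 1 arrangement passed, and the ratios of DR0, DR6, DR7 and YY1 turned to 0.940, 1.15, 0.974 and 1.14.

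The range of 1 to 5 kb held 2100 TRBS, with DR4 against over 10 kb at 0.869 (p = 0.0390 in Fisher's exact test), 1 arrangement passed, DR0 and DR6 at 0.934 and 1.04, and 9 striatal and 1 astrocyte genes. The range of 5 to 10 kb held 1607, with side odds ratios of 1.09 and 1.02, DR4 against over 10 kb at 1.07, enrichment against within 1 kb at 0.918, DR8 at 0.894, 1 arrangement and 4 motifs passed. It left 7 response, 2 machinery, 5 GABAergic, 6 clock, 5 immediate early and 0 oligodendrocyte genes. These ranges hold fewer TRBS by construction.

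All annotated genes gave 6018 TRBS, side odds ratios of 0.953 and 1.04, and the stronger site proximal in 50.4%. Every transcript start gave 1.06 for the side against 10 to 30 kb, 0.954 for DR4 upstream against downstream, 0.989 for other starts and 10 machinery genes. With at most 1 mismatch DR4 against over 10 kb was 1.08, and DR0, DR1, DR6 and DR7 had 0.818, 1.50, 4.0 and 0.857. With at most 3, DR4 upstream against downstream was 0.998. The window to the left gave 4 arrangements, DR7 at 0.943 and YY1 at 2.67. NFI, NRF1 at 5 to 10 kb and the everted repeat at 1 mismatch gave no ratio, because sites or windows held no match. Pileup gave 44.2% for the stronger site. Counting any site 1 to 10 kb from the TSS gave 10 machinery, 2 microglia and 1 hepatocyte genes.

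These further alternatives were chosen after the data were seen. Summits that are not CpG-rich gave DR4 odds ratios of 1.15 and 1.02 against within 1 kb and over 10 kb, 0.969 for upstream against downstream, and enrichment of 0.935 against within 1 kb. TRBS without another start gave 1.04 for DR4 against over 10 kb and 0.912 for upstream against downstream. With only the most enriched proximal TRBS of each gene kept, the side against 10 to 30 kb was 1.07 and DR4 against over 10 kb 1.02. DR4 upstream against downstream was then 0.932 and enrichment against within 1 kb 1.07. The other classes kept all their TRBS, so this choice raised the enrichment value by construction, and it is no comparison. DR4 was also more frequent at more enriched TRBS, so the DR4 value against over 10 kb is affected too. The cause of the other changes was not tested. No paired analysis was possible because the list holds no column for a single library, and for the same reason no library could be left out.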

Other observations

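A few proximal TRBS combined a high pileup with a low fold enrichment, and they were singled out after their values were seen. The TRBS nearest to the predicted genes Gm10718, Gm10721, Gm10801 and Gm10800 had pileups of 870, 677, 620 and 428, and fold enrichments of 3.86, 3.19, 3.22 and 2.63. The first is 29283 bp long, at chr9:3009128-3038410, and is the longest TRBS of the list. The summits at Gm10718, Gm10721 and Gm10801 lie in sequence that the assembly marks as repeats, and that at Gm10800 does not. Among all proximal TRBS 10.7% of summits lie in such sequence. No such regions were left out here, and whether these TRBS reflect receptor binding was not tested. A TRBS near Txndc11 reached a pileup of 210 at 2.74-fold enrichment.

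The vomeronasal receptor genes Vmn1r24 and Vmn1r33, members of a large family of similar genes, each had a proximal TRBS with a DR4 without mismatch, both 5.95-fold enriched at a pileup of 15. The windows of 100 bp to either side of their summits were aligned without gaps at shifts of up to 60 bases on both strands, and the best alignment had 93 identical bases of 150, or 62.0%. Of the 17 genes with DR4 at 2 or more proximal TRBS, Adora1 is described with the genes that had the most TRBS.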
